A study of Rattus norvegicus with 12 samples.

Results

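The genes described here are 10 matrix and tendon genes of rat skeletal muscle: Chad, Fmod, Prelp, Comp, Thbs4, Cilp, Cilp2, Tnmd, Scx and Mkx. They were taken by symbol from a table of 24648 gene rows, as matrix genes of tendon and cartilage, with tendon markers, among which higher values after maternal protein restriction had been seen. All 10 had a row, and all 10 were among the 14225 genes kept by the filter on low counts. Because the diet values chose them, the comparisons between diets below are descriptions and carry no test for these genes.

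The libraries were RNA-seq of muscle from male rats aged 540 days. The maternal protein restriction groups were born to dams fed a diet with 6% protein during gestation and lactation, and the control groups are labelled only as control. The restriction libraries are numbered 12, 13 and 15 in set 1 and 32, 33 and 35 in set 2, and the controls 3, 8 and 9 in set 1 and 23, 28 and 29 in set 2. Soleus and extensor digitorum longus are the muscles named by the series description. Which muscle each library came from is not labelled, and the 2 runs of title numbers are called sets. Strain, dam and litter are not given in the labels used here, and nothing says that the 3 libraries of a group came from separate animals, so their spread may be technical in part.

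Tendon and cartilage owe their strength to collagen fibrils, and a small number of secreted proteins sit on those fibrils and set their spacing and their links to cells. In muscle such proteins are made by tendon cells at the muscle ends and by fibroblasts of the connective tissue sheaths. Small leucine-rich proteins (Fmod, Prelp and Chad here) bind collagen or cell surface receptors, thrombospondins (Comp and Thbs4) bridge several matrix proteins, and the cartilage intermediate layer proteins (Cilp and Cilp2) lie between fibrils. Scx and Mkx are transcription factors of the tendon lineage, and Tnmd is a membrane protein of mature tendon cells.

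Total counts were between 22829692 and 38313704 per library. Myh7, the slow myosin heavy chain, lay between 702 and 2589 CPM in set 2 and between 31172 and 38338 CPM in set 1. Myh4, the fast type IIB myosin, lay between 25650 and 47519 CPM in set 2 restriction libraries and between 11042 and 19039 CPM in set 2 controls. The groups did not overlap, as for 7.01% of all genes in that direction. Its log2 fold change between diets there was 1.11 ± 0.96 (SE), and it was not called. The part of Myh4 in the differences described next was not tested. Control 23 stood apart in set 2, with 0.202% globin counts against 0.0385% to 0.0919% in the other 5 libraries of that set. Control 3 stood apart in set 1, with 396 CPM of Myh4 against 4.97 and 19.5 CPM in the other controls. Levels are CPM, the counts scaled to a common library size by TMM. They are compared within a gene only, since transcript lengths were not used here. In whole muscle, more cells of a type and more RNA per cell cannot be told apart.

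Between diets, all 10 genes had log2 fold changes above 0 in both sets, and they differed in size. Leaving out 1 library changed the sign of Cilp2 and Cilp in set 1, of Scx in set 2 and of Tnmd and Mkx in both sets. In both sets, the matrix genes Chad, Fmod, Comp and Prelp had restriction means 1.46 to 2.60 times the control means. For Thbs4 the ratio was 1.37 in set 1 and 2.21 in set 2, and for Cilp2 1.14 and 2.99. Chad, Comp, Thbs4 and Cilp2 were each separated between diets in set 2 only. The tendon cell genes Tnmd, Scx and Mkx had log2 fold changes within 1 SE of 0 in each set. In set 2, 6 of the 10 genes (Chad, Fmod, Comp, Thbs4, Cilp2 and Prelp) were higher in every restriction library than in every control, as were 7.01% of all genes tested. In set 1, 2 of the 10 were (Fmod and Prelp), as were 7.97% of all genes. Fmod and Prelp were so in both sets, as were 0.394% of all genes. In the other direction, 0 of the 10 were lower in every restriction library than in every control, against 9.6% of all genes in set 1 and 5.72% in set 2. The median log2 fold change of the 10 genes was 0.50 in set 1 and 0.92 in set 2, against -0.00 and -0.01 over all genes. With these genes chosen on this contrast, nothing is read from those counts.

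**Figure D1:**
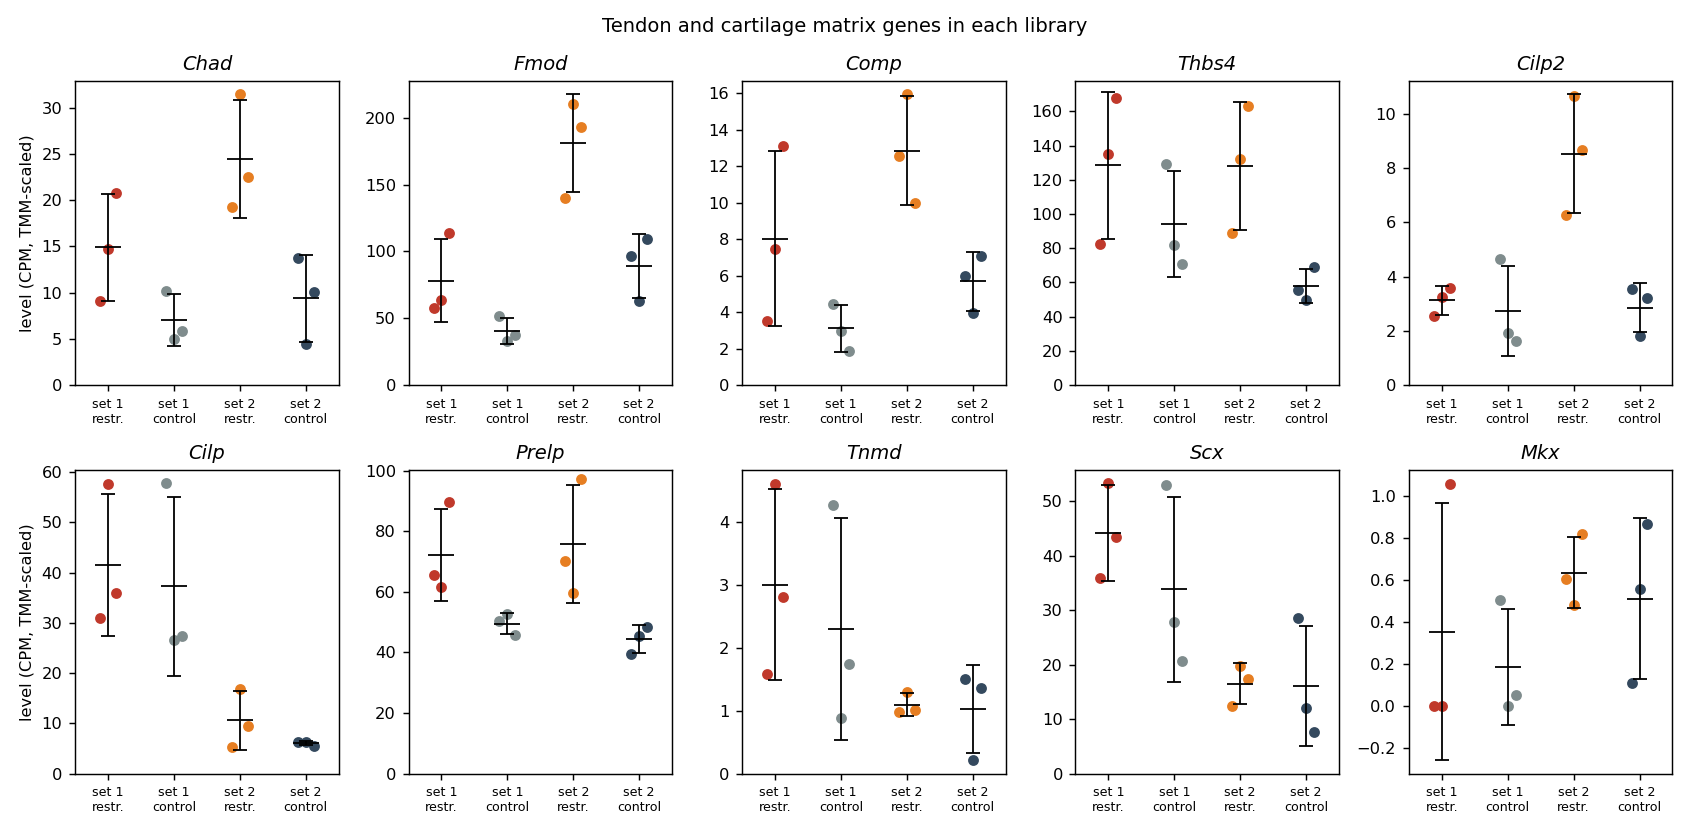
Level (CPM, TMM-scaled) of each of the 10 genes in each library, as points, with the mean and SD of the 3 libraries of each group as bars; each panel has its own axis. In set 2 all 3 restriction libraries lie above all 3 controls for Chad, Fmod, Comp, Thbs4, Cilp2 and Prelp, whereas for Tnmd, Scx and Mkx the diets overlap in both sets.

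Among the small leucine-rich proteins, Fmod (fibromodulin), which binds collagen and takes part in fibril assembly, measured 57.4, 63.3 and 114 CPM in set 1 restriction libraries, against 51.5, 33.2 and 37.4 CPM in set 1 controls. In set 2 it measured 139.9, 211 and 193 CPM in restriction libraries, against 96.2, 62.7 and 109 CPM in controls. Every restriction library was above every control in both sets, but with scaling by library size alone the set 1 groups overlapped. The restriction mean was 1.92 times the control mean in set 1 and 2.03 times in set 2. On the log2 scale this was 0.94 ± 0.28 and 1.02 ± 0.28 (SE), and without restriction 15 the set 1 value was 0.57.

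Chad (chondroadherin), a cartilage protein that cells bind through integrins, measured 9.12, 14.7 and 20.8 CPM in set 1 restriction libraries, against 10.2, 5.02 and 5.87 CPM in controls. The lowest restriction library, number 12, lay below control 3, so the groups overlapped. In set 2 Chad measured 19.3, 31.5 and 22.5 CPM in restriction libraries, against 13.7, 4.42 and 10.04 CPM in controls, with no overlap. The log2 fold changes were 1.08 ± 0.40 in set 1 and 1.38 ± 0.40 in set 2 (SE).

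Prelp, a heparin-binding protein that links basement membranes to the matrix around them, measured 65.4, 61.5 and 89.6 CPM in set 1 restriction libraries, against 50.3, 52.6 and 45.7 CPM in controls. Set 2 gave 70.0, 59.6 and 97.4 CPM in restriction libraries, against 39.4, 45.5 and 48.6 CPM in controls. Its groups did not overlap in either set. The log2 fold changes were 0.54 ± 0.19 in set 1 and 0.77 ± 0.19 in set 2 (SE), and without restriction 15 the set 1 value was 0.36.

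Of the thrombospondins, Comp (cartilage oligomeric matrix protein), which binds fibrillar collagens, measured 3.53, 7.45 and 13.1 CPM in set 1 restriction libraries, against 4.47, 2.99 and 1.88 CPM in controls. Restriction 12 lay below control 3 here too, and the restriction libraries spread over a wider range than the controls. In set 2 Comp measured 12.6, 15.97 and 10.01 CPM in restriction libraries, against 6.01, 3.93 and 7.10 CPM in controls, with no overlap. Its log2 fold changes were 1.37 ± 0.43 in set 1 and 1.18 ± 0.42 in set 2 (SE), and without restriction 15 the set 1 value was 0.82.

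Thbs4 (thrombospondin 4), a protein of tendon and of the sites where muscle fibres attach to tendon, measured 82.5, 135 and 168 CPM in set 1 restriction libraries, against 129, 81.9 and 70.7 CPM in controls. Control 3 lay close to restriction 13, and the groups overlapped. In set 2 Thbs4 measured 89.1, 132 and 163 CPM in restriction libraries, against 55.4, 49.5 and 69.0 CPM in controls, with every restriction library above every control. The log2 fold changes were 0.45 ± 0.29 in set 1 and 1.14 ± 0.29 in set 2 (SE). The set 1 value was 0.21 without restriction 15 and 0.28 without control 9, but 0.69 without restriction 12 and 0.76 without control 3.

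Cilp2 showed its separation in set 2, where restriction libraries measured 6.28, 10.7 and 8.69 CPM against 3.54, 1.82 and 3.20 CPM in controls. The restriction mean there was 2.99 times the control mean, the widest ratio of the 10 genes in set 2. In set 1 Cilp2 measured 2.54, 3.26 and 3.58 CPM in restriction libraries, against 4.64, 1.92 and 1.64 CPM in controls, so control 3 was above all 3 restriction libraries. The log2 fold changes were 0.20 ± 0.40 in set 1 and 1.59 ± 0.40 in set 2 (SE). The set 1 value was -0.07 without control 9, 0.0007 without control 8 and 0.09 without restriction 15, but 0.33 without restriction 12 and 0.82 without control 3.

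Cilp, the related protein that binds growth factors in cartilage, overlapped between diets in both sets. It measured 31.0, 57.7 and 36.1 CPM in set 1 restriction libraries, against 57.8, 26.5 and 27.5 CPM in controls. The set 2 levels were 5.34, 16.9 and 9.57 CPM in restriction libraries, against 6.22, 6.27 and 5.57 CPM in controls. Here 2 of 3 restriction libraries exceeded the controls and restriction 32 was the lowest library of all 6. The log2 fold changes were 0.16 ± 0.37 in set 1 and 0.82 ± 0.39 in set 2 (SE), and without restriction 33 the set 2 value was 0.31. In set 1 it was -0.15 without restriction 13, -0.04 without control 8 and -0.02 without control 9. Without restriction 15 it was 0.25, without restriction 12 it was 0.33 and without control 3 it was 0.63.

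Among the tendon cell genes, Scx (scleraxis), a transcription factor that marks tendon progenitors, measured 35.9, 53.4 and 43.5 CPM in set 1 restriction libraries, against 53.0, 27.95 and 20.6 CPM in controls. In set 2 it measured 12.4, 19.8 and 17.3 CPM in restriction libraries, against 28.5, 12.02 and 7.70 CPM in controls. One control in each set, number 3 and number 23, was at or above the restriction libraries, apart from restriction 13, which was slightly above control 3. The log2 fold changes were 0.39 ± 0.41 in set 1 and 0.05 ± 0.42 in set 2 (SE). The set 1 value was 0.13 without control 9 and 0.23 without restriction 13, but 0.87 without control 3. In set 2 the sign turned without control 29 (-0.29), control 28 (-0.12) or restriction 33 (-0.10). Scx stood there at 0.02 without restriction 35, 0.22 without restriction 32 and 0.75 without control 23.

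Tnmd (tenomodulin) measured 1.59, 4.61 and 2.81 CPM in set 1 restriction libraries, against 4.27, 0.886 and 1.75 CPM in controls. Its set 2 levels were 0.973, 1.30 and 1.00 CPM in restriction libraries, against 1.50, 0.223 and 1.37 CPM in controls. The controls spanned the restriction libraries in set 2, and the log2 fold changes were 0.38 ± 0.65 in set 1 and 0.10 ± 0.68 in set 2 (SE). The set 1 value was -0.06 without restriction 13 and -0.0013 without control 8, but 0.22 without control 9, 0.69 without restriction 12 and 1.19 without control 3. In set 2 leaving out any 1 of the 6 libraries moved it by over 1.5 times, from -0.38 without control 28 and -0.05 without restriction 33 to 0.16 without restriction 35, 0.17 without restriction 32, 0.39 without control 29 and 0.45 without control 23. These levels rested on 6 to 127 counts per library.

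Mkx (mohawk), a homeobox transcription factor of tendon, was near the limit of detection. It had 0, 0 and 26 counts in set 1 restriction libraries, against 15, 0 and 2 in controls, and 18, 14 and 26 in set 2 restriction libraries, against 2, 15 and 26 in controls. A library with 0 counts allows a level of up to 0.0794 to 0.161 CPM (3 counts per library, counting error only). The set 1 log2 fold change of 0.91 ± 1.48 (SE) was decided by single libraries, being -5.42 without restriction 15, 0.35 without control 8, 0.46 without control 9, 1.49 without restriction 12, 1.50 without restriction 13 and 3.41 without control 3. In set 2 it was 0.28 ± 1.38, with -0.17 without control 23, 0.07 without restriction 35, 0.45 without restriction 33 and 0.89 without control 29.

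**Figure D2:**
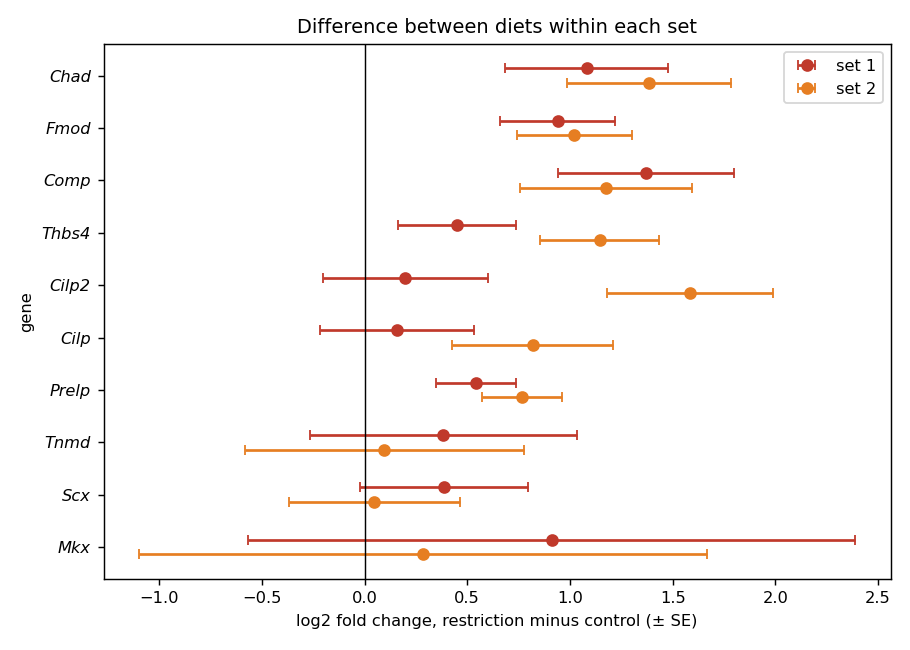
Log2 fold change, restriction minus control, of each gene in set 1 and in set 2, with SE as bars. Chad, Fmod, Comp, Thbs4 and Prelp lie to the right of 0 by more than 1 SE in both sets, Cilp2 and Cilp in set 2 only, and Tnmd, Scx and Mkx lie within 1 SE of 0.

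Over all genes tested, edgeR's quasi-likelihood test called 0 of the 10 genes in set 1, in set 2 and for the mean over both sets. It called 0.00703% of all genes in set 1, 0% in set 2 and 0.00703% for the mean. At an unadjusted p under 0.05 there were 4, 6 and 6 of the 10, with 7.54%, 8.59% and 7.83% of all genes. DESeq2 called 0, 2 and 5 of the 10, with 38, 40 and 55 of all genes. Limma-voom called 0 of the 10 in each, with 3, 0 and 0 of all genes. The values that chose these genes are part of those counts.

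The difference between the sets in the diet effect, set 2 effect minus set 1 effect, is made of the same diet values that chose the genes, so it is given as a description with no p for a gene. It was 1.39 ± 0.57 on the log2 scale for Cilp2 (SE), 0.69 ± 0.41 for Thbs4 and 0.66 ± 0.54 for Cilp. For Fmod it was 0.08 ± 0.39, for Prelp 0.22 ± 0.27, for Chad 0.30 ± 0.55 and for Comp -0.19 ± 0.59. The tendon cell genes stood at -0.34 ± 0.58 for Scx, -0.29 ± 0.94 for Tnmd and -0.63 ± 1.999 for Mkx. EdgeR's quasi-likelihood test called 0 of the 10 genes and 0% of all genes in this contrast, DESeq2 and limma-voom called 0 of the 10, and at an unadjusted p under 0.05 there were 1 of the 10 and 1351 of all genes. That Chad, Comp, Thbs4 and Cilp2 were separated in set 2 alone is therefore not read as a difference between the sets.

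The sets themselves differed in these genes, and in opposite directions. Averaged over both diets, Fmod and Cilp2 were higher in set 2, whereas Cilp, Tnmd and Scx were lower there. This contrast is not the one that chose the genes, but it averages in the restriction values that took part in the choice. EdgeR's quasi-likelihood test called 5 of the 10, against 39.5% of all genes, with 19.9% of all genes called higher in set 2 and 19.6% lower. Fmod rose by 1.17 ± 0.20 (log2, SE), with an edgeR adjusted p = 0.00033, and its lowest set 2 restriction library, at 139.9 CPM, exceeded the highest of set 1, at 114 CPM. Cilp2 rose by 0.75 ± 0.28 (edgeR adjusted p = 0.048), although among controls it averaged 2.85 ± 0.91 CPM in set 2 and 2.73 ± 1.66 CPM in set 1 (SD, n = 3 each). In restriction libraries it averaged 8.54 ± 2.20 CPM in set 2 and 3.13 ± 0.53 CPM in set 1. Its call thus came through the restriction libraries, whose values took part in choosing it, and is not independent of that choice.

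On the other side, Cilp fell by 2.30 (SE 0.28, edgeR adjusted p = 2.1e-05). It averaged 10.6 ± 5.87 CPM in set 2 and 41.6 ± 14.2 CPM in set 1 restriction libraries, and 6.02 ± 0.39 CPM in set 2 and 37.3 ± 17.8 CPM in set 1 controls (SD, n = 3 each). Scx fell by 1.25 (SE 0.30, edgeR adjusted p = 0.0039) and Tnmd by 1.31 (SE 0.48, edgeR adjusted p = 0.041). The related pair Cilp2 and Cilp thus had opposite signs in this mean over both diets, for Cilp2 mainly through the restriction libraries. All 9 slow fibre genes were called lower in set 2, with a median of -4.68, and all 10 fast fibre genes higher, with a median of 3.93. Markers of some other cells were lower in set 2 as well. There 10 of 11 tested macrophage genes, 8 of 11 fibro-adipogenic progenitor genes and 7 of 11 adipocyte genes were called lower. Of all genes, 19.6% were. Adipocyte genes had the lowest median of these 3 lists, at -2.45, against -1.62 for macrophage and -0.95 for fibro-adipogenic progenitor genes. Endothelial genes went the other way, with 4 of 10 called higher, 1 lower and a median of 0.29. Schwann cell and perineurial genes did too, with 4 of 11 called higher, 2 lower and a median of 0.31. The part of these fibres and cells in the differences between the sets was not tested.

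Not called were Comp (0.78 ± 0.30, edgeR adjusted p = 0.052), Chad (0.56 ± 0.28, edgeR adjusted p = 0.12), Mkx (1.16 ± 1.01), Thbs4 (-0.35 ± 0.20) and Prelp (-0.04 ± 0.14). The 95% interval for Prelp ran from -0.34 to 0.25. Leaving out single libraries gained calls for 3 of these and ended the calls of Cilp2 and Tnmd. Comp was called without control 3, control 28, restriction 15 or restriction 35 (edgeR adjusted p from 0.010 to 0.0499), Chad without control 28 (edgeR adjusted p = 0.031) and Mkx without restriction 15 (4.33, edgeR adjusted p = 0.022). Cilp2 had an edgeR adjusted p from 0.058 to 0.11 in 9 such fits, those without control 8, 9, 23 or 29 or without restriction 12, 13, 15, 33 or 35. Tnmd was lost in 7, those without control 3 or 28 or without restriction 13, 15, 32, 33 or 35, at an edgeR adjusted p from 0.057 to 0.14. Without restriction 13 or without restriction 33, 3 of the 10 genes were called (Fmod, Cilp and Scx).

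**Figure D3:**
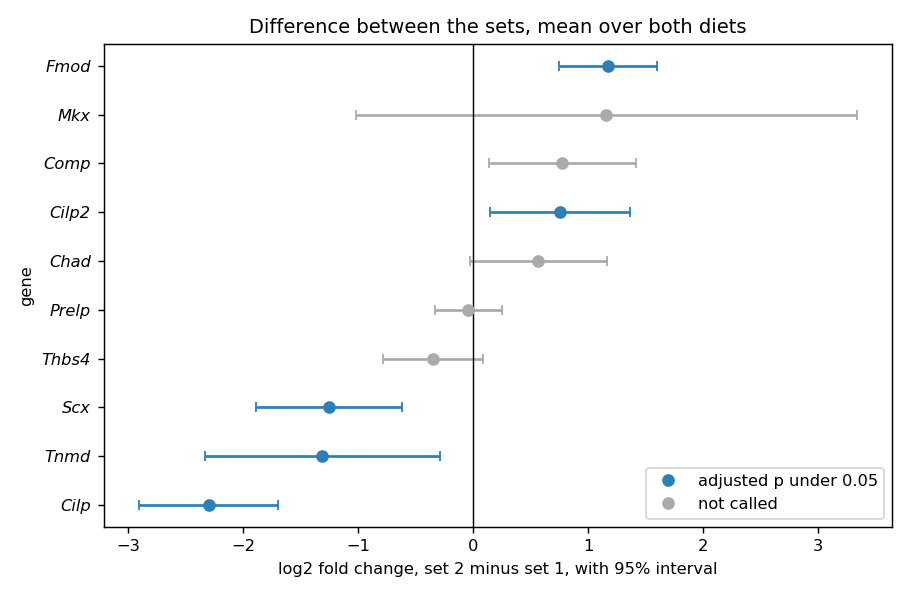
Log2 fold change, set 2 minus set 1, averaged over both diets, with its 95% interval as bars; blue points have an edgeR adjusted p under 0.05. Fmod (1.17) and Cilp2 (0.75) lie to the right of 0 and Cilp (-2.30), Tnmd (-1.31) and Scx (-1.25) to the left.

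Relatives of these genes also differed between the sets by edgeR's quasi-likelihood test. Of the 29 tendon genes, 8 were called higher in set 2 and 11 lower. Of all genes, 19.9% were called higher and 19.6% lower, and the counts below stand beside those shares. Six2, a homeobox factor also found in tendon, rose by 3.47 ± 0.43 (log2, edgeR adjusted p = 2.7e-05). Tppp3, a marker of the tendon sheath, fell by 3.67 (SE 0.24, edgeR adjusted p = 4.7e-08), and Prg4 (lubricin), which lubricates sliding surfaces, by 2.20 (SE 0.21). Of 11 small leucine-rich proteoglycan genes 5 were called lower, among them Bgn, which fell by 2.30 (SE 0.24), and 2 higher, among them Chadl, a relative of Chad, which rose by 1.66 ± 0.36. Thbs3, the close relative of Comp and Thbs4, fell by 2.80 (SE 0.28). No fibrillar collagen gene was called higher and 5 of 11 were called lower, with Col3a1 falling by 1.36 (SE 0.28) and Col1a1 by 0.80 (SE 0.26).

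Ordered by mean level over the 4 groups, set 2 restriction libraries came first for Chad, Fmod, Comp, Cilp2, Prelp and Mkx, and set 1 restriction libraries for Thbs4, Cilp, Tnmd and Scx. A restriction group came first for all 10 genes, as the choice of genes favours. For Fmod, set 2 restriction libraries were separate from the next group, set 2 controls, and set 1 restriction libraries overlapped set 2 controls. For Chad and Comp, the groups next to each other in the order overlapped throughout. For Cilp the break lay between the sets, with the 2 diets of each set overlapping. For Scx, set 1 controls were separate from set 2 restriction libraries, next in the order, but set 2 control 23, at 28.5 CPM, exceeded set 1 controls 8 and 9, so the sets overlapped. For Prelp the break lay between the diets, with the 2 sets of each diet overlapping, so that 59.6 CPM was the lowest restriction level and 52.6 CPM the highest control level over both sets.

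Within groups, where diet and set are both removed, most of these genes varied together from library to library. Each level was taken as the deviation of log2 CPM from the mean of its own group of 3. Of the 45 gene pairs, 40 had a positive Pearson correlation over the 12 libraries, with a median of 0.57 and a range of -0.26 to 0.87, given as a description without p. Chad followed Tnmd (0.87), Fmod (0.87) and Cilp2 (0.86) most closely. Thbs4, Cilp2, Fmod and Chad each correlated at 0.85 to 0.90 with the mean of the other 9 genes. Tnmd stood at 0.68, Cilp at 0.53, Mkx at 0.52 and Scx at 0.45. Prelp stood apart at 0.15, and its correlation with Cilp was the lowest of all pairs.

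By library, restriction 12 and restriction 32 were below the group mean in 10 of 10 genes, and so was control 9. Control 3 was above it in 10 of 10, restriction 15 in 8, and restriction 33 and control 29 in 8 each. Control 28 was below it in 7 genes. The title numbers of set 2 are those of set 1 plus 20, and whether such a pair is 1 animal is not labelled. Over these pairs, the mean standardised deviation had the same sign in 5 of 6 pairs, and control 9 (-0.72) and control 29 (0.39) differed. Without control 3, 8 of the 10 genes were higher in every set 1 restriction library than in both remaining controls, as were 17.1% of all genes. Without restriction 12 this held for 5 of the 10 and 15% of all genes. In set 2, 7 of the 10 were separated without control 23, with 12.5% of all genes, and likewise 7 without restriction 32, with 13.7%.

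**Figure D4:**
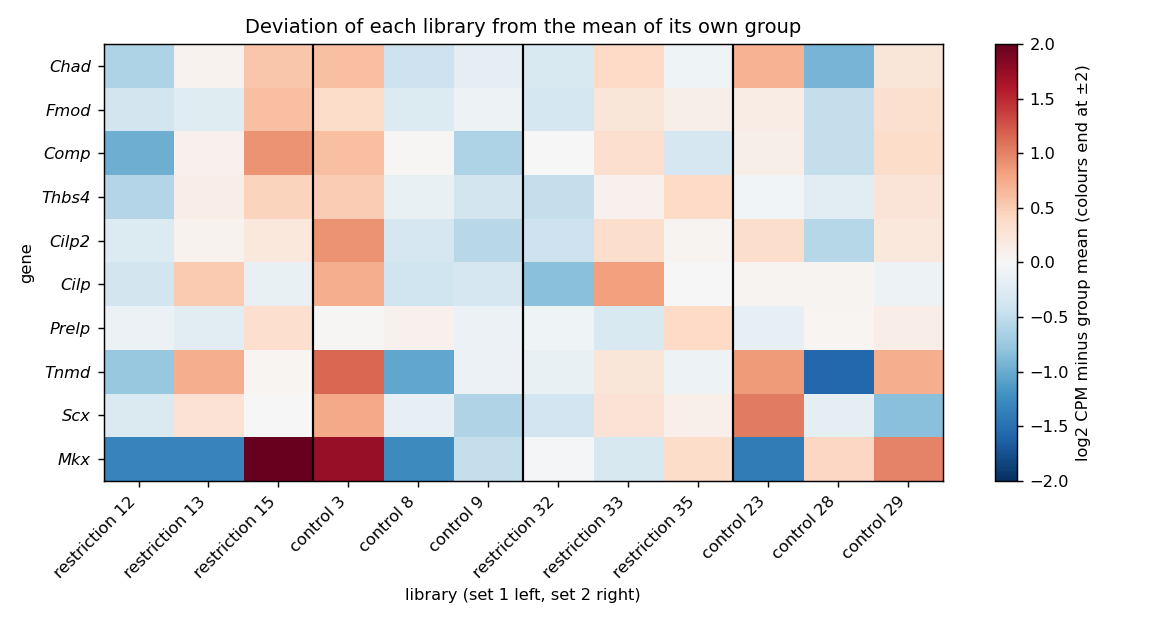
Deviation of log2 CPM from the mean of its own group, for each gene (rows) and library (columns), with groups parted by black lines. Control 3 is above its group mean in all 10 rows, restriction 12, control 9 and restriction 32 are below it in all 10, and the row of Prelp follows the others least (0.15).

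Among 11117 other genes with a symbol and a mean of at least 1 CPM, Kera (keratocan), a small leucine-rich proteoglycan of cornea and tendon, was the one most like the 10 genes in its deviations. Its Pearson correlation with their mean standardised deviation was 0.96 over 12 libraries, 0.96 in the 6 libraries of set 1 and 0.95 in those of set 2. The median over those 11117 genes was -0.0009. Kera and the genes named after it were picked as the highest of the 11117, so the height of their correlations follows in part from that choice. Kera measured 0.992, 3.53 and 6.27 CPM in set 1 restriction libraries, against 3.66, 0.923 and 1.22 CPM in controls. Set 2 gave 6.75, 12.8 and 9.70 CPM in restriction libraries, against 4.56, 1.71 and 5.20 CPM in controls. As for Chad and Comp, the diets overlapped in set 1 and not in set 2, and the log2 fold changes were 0.89 ± 0.62 and 1.35 ± 0.61 (SE). Col14a1, a fibril-associated collagen of tendon and connective tissue, came next at 0.93, with log2 fold changes between diets of 0.24 ± 0.33 in set 1 and -0.04 ± 0.35 in set 2. Its deviations thus followed the 10 genes while its diet means did not differ by more than 1 SE. Fads1 (0.92), Ggcx (0.91), Prpf8 (0.90), Entpd6 (0.90), Flot2 (0.90) and Ergic1 (0.89) completed the first 8.

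The lists of other tendon and cartilage genes had lower medians between diets than the 10 genes, and edgeR called 0 of them in either set or for the mean, as for 0.00703% of all genes for the mean. The lists were drawn up with earlier results of these data known, so they are no independent evidence. Of 29 tested tendon lineage and tendon matrix genes, 20 had a mean log2 fold change above 0, with a median of 0.19, against 48.2% of all genes and a median of -0.01. Kera (1.12 ± 0.44), Tnc (0.85 ± 0.43), a matrix protein of strained tissue, and Six2 (0.80 ± 0.42) had the highest of the named values. Egr1, an immediate early gene that also acts in tendon, had the lowest at -1.24 ± 0.34 (SE).

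All 11 fibrillar collagen genes had values above 0, with a median of 0.27, from Col3a1 at 0.04 ± 0.27 to Col24a1 at 0.91 ± 0.35. Of 17 tested cartilage genes, from 24 rows, 11 were above 0, with a median of 0.14. Col11a2, a cartilage collagen chain, stood at 0.77 ± 0.26, Chadl at 0.25 ± 0.36, Sox6 at 0.14 ± 0.24 and Sox9 at -0.44 ± 0.34. The main tendon collagen genes had small values, with Col1a1 at 0.19 ± 0.26 and Col1a2 at 0.27 ± 0.39. Of 11 other small leucine-rich proteoglycan genes 8 were above 0, with a median of 0.25, and of 11 thrombospondin and matricellular genes 7, with a median of 0.24, led by Spp1 (osteopontin) at 1.06 ± 0.38. Bgn (biglycan) stood at 0.26 ± 0.23 and Lum (lumican) at -0.03 ± 0.33, and Fmod itself at 0.98 ± 0.20.

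Collagen processing and cross-linking genes had a median of 0.17 with 13 of 17 above 0, among them Serpinh1, a collagen chaperone, at 0.47 ± 0.15 and Bmp1, which trims procollagen, at 0.47 ± 0.15. Genes of TGF-beta signalling, which induces tendon genes in development, had a median of 0.04 with 9 of 14 above 0. Acvr2b, an activin and myostatin receptor, stood at 0.64 ± 0.16 there. Mstn (myostatin) stood at -1.96 ± 1.18 on low counts.

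**Figure D5:**
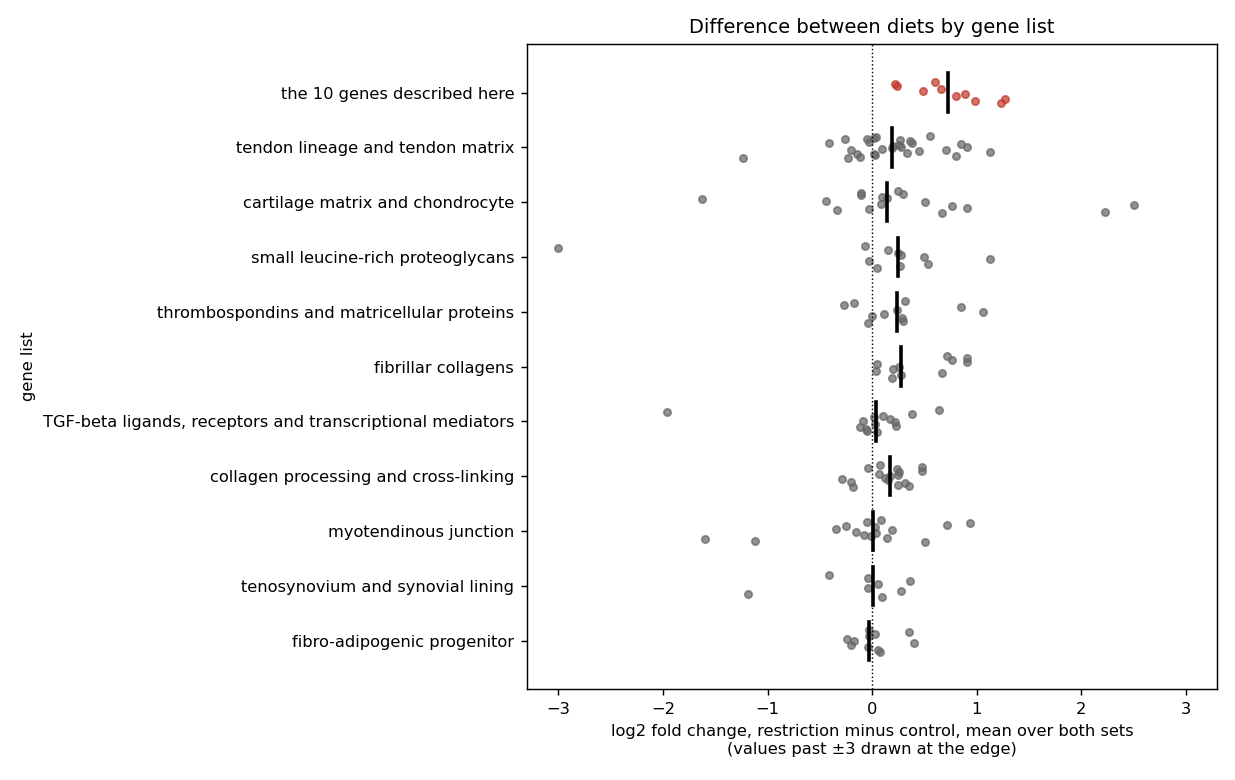
Log2 fold change between diets, restriction minus control and averaged over both sets, of each tested gene in each list (points), with the median of the list as a black bar; the 10 genes described here are in red and were chosen on these values. Values past -3 or 3 are drawn at the edge, and the medians of the lists drawn here, which leave out the other cell and fibre markers, run from -0.03 for fibro-adipogenic progenitor genes to 0.27 for fibrillar collagens, against 0.73 for the 10 genes.

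Markers of other cells that a muscle sample could hold were set beside these differences. Of the defining cartilage genes, Acan, Matn1 and Matn3 had 0 counts in all 12 libraries, which allows at most 0.161 CPM in any library, and Col2a1, Hapln1 and Col9a1 had at most 27 counts in any library. Sox9, which tendon progenitors share, had 63 to 445. Fibro-adipogenic progenitor genes had 5 of 11 values above 0 and a median of -0.03, with a summed level of 992 to 1259 CPM in set 1 restriction libraries and 1028 to 1249 CPM in controls. In set 2 the sums were 511 to 683 CPM in restriction libraries and 416 to 695 CPM in controls, so the diets overlapped.

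Genes of the myotendinous junction had 8 of 16 values above 0 and a median of 0.01, with Tigd4 at 0.93 ± 0.40, Adamts20 at 0.71 ± 0.19, Ankrd1 at -1.12 ± 0.32 and Ankrd2 at -1.59 ± 0.38. Genes of the tendon sheath and synovial lining had 4 of 8 above 0 and a median of 0.01. Schwann cell and perineurial genes had 11 of 11 above 0 with a median of 0.40. Their summed level was 139 to 178 CPM in set 1 restriction libraries against 92.1 to 146 CPM in controls, and 127 to 245 CPM in set 2 restriction libraries against 143 to 193 CPM in controls. Red blood cell genes had 0 of 6 above 0 and a median of -1.09, and in set 2 their sum was 391.6 to 515 CPM in restriction libraries against 740.3 to 2458 CPM in controls, without overlap. Endothelial genes had 4 of 10 above 0 and a median of -0.10, and in set 2 their sum was 358 to 451 CPM in restriction libraries against 470.4 to 513 CPM in controls, also without overlap. In set 1 all 11 adipocyte genes had values under 0. They summed to 357 to 383 CPM in restriction libraries against 487 to 535 CPM in controls. In set 2, 5 of these 11 were above 0, with a median of -0.11 and sums that overlapped. Macrophage genes were above 0 in 10 of 11 in set 1 and in 5 of 11 in set 2, where their median was -0.02. Fast fibre genes had 7 of 10 values above 0 in set 1 and 3 of 10 in set 2, where their median was -0.28. In set 1 Myh1 stood at 0.93 ± 0.71, but Myh4 at -3.47 ± 1.06, with its high level in control 3. The fast fibre sum was 9351 to 11457 CPM in set 1 restriction libraries against 4566 to 7774 CPM in controls, without overlap. In set 2 the fast fibre sums overlapped, at 142224 to 166140 CPM in restriction libraries and 138380 to 167209 CPM in controls. Slow fibre genes had 2 of 9 values above 0 in set 1 and 1 of 9 in set 2, with sums that overlapped between diets in both sets. Bone cell genes had 2 of 3 mean values above 0. The part of these cells and fibres in the differences of the 10 genes was not tested.

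Matrix genes were also set against Scx as a ratio of counts within each library, which no scaling affects. The log2 ratio of Fmod to Scx counts averaged 0.77 ± 0.58 in set 1 restriction libraries and 0.35 ± 0.46 in controls, and 3.46 ± 0.05 in set 2 restriction libraries and 2.65 ± 1.06 in controls (SD, n = 3 each). The diets overlapped in both sets. The ratio of Comp to Scx was -2.64 ± 0.83 in set 1 restriction libraries and -3.42 ± 0.18 in controls, and -0.36 ± 0.41 in set 2 restriction libraries and -1.33 ± 1.09 in controls, with overlap in both sets. Thbs4 to Scx averaged 1.50 ± 0.40 in set 1 restriction libraries and 1.54 ± 0.25 in controls, so it was not higher there. In set 2 it was 2.94 ± 0.26 and 2.05 ± 1.10. Chad to Scx averaged -1.63 ± 0.49 in set 1 restriction libraries and -2.22 ± 0.36 in controls, and 0.56 ± 0.16 and -0.71 ± 0.96 in set 2. For both the diets overlapped in each set. For Fmod to Scx, every set 2 library (1.75 to 3.83) exceeded every set 1 library (-0.04 to 1.38). For Comp to Scx the sets overlapped, from -2.25 to 0.02 in set 2 and from -3.57 to -1.73 in set 1.

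In the genome the 10 genes are spread over 8 chromosomes. Fmod and Prelp are direct neighbours on chromosome 13 in the rat RefSeq annotation (GRCr8, used for order only), with Optc, another small leucine-rich gene, on the far side of Prelp and Btg2 next to Fmod. Optc, at about 1 CPM, had log2 fold changes between diets of 0.02 ± 0.77 in set 1 and 0.53 ± 0.77 in set 2. Btg2, an antiproliferative immediate early gene, had values below 0, at -0.47 ± 0.23 in set 1 and -1.22 ± 0.23 in set 2 (SE). Comp and Cilp2 share chromosome 16 with 24 protein-coding genes between them. Scx lies inside the span of Bop1 and Chad inside that of Acsf2, and Fmod and Prelp each overlap a long noncoding RNA gene. The libraries do not mark strand, so reads shared by such a pair cannot be told apart. Bop1 had values of -0.12 ± 0.20 in set 1 and -0.22 ± 0.20 in set 2, and Acsf2 of 0.20 ± 0.18 and 0.00 ± 0.18, against 1.08 ± 0.40 and 1.38 ± 0.40 for Chad.

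Promoter sequence was looked at as a description, for each of these genes that had a promoter window. The sequences of Chad, Comp, Cilp2 and Fmod are shown. Thbs4, Cilp, Mkx and Tnmd also had windows, and only their matches are counted. RefSeq promoter windows (GRCr8) were at hand for 8 of the 10 genes. The 4 sequences below give the 250 bases before the annotated start, 5′ to 3′ on the gene's strand, with matches to the E-box CANNTG in capitals, the element that basic helix-loop-helix factors such as Scx bind.
Chad, chr10:80008795-80009044, + strand: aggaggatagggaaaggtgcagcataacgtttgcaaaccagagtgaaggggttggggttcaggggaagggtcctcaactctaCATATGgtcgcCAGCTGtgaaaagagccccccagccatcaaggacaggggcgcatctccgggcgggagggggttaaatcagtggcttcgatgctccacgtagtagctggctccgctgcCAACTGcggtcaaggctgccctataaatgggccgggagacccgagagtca
Comp, chr16:19089549-19089798, - strand: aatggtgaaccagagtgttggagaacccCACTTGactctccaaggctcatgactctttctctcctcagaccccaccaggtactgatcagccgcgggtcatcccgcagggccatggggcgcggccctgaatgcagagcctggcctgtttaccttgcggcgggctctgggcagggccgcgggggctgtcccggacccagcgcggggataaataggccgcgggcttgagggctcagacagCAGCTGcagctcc
Cilp2, chr16:19573857-19574106, + strand: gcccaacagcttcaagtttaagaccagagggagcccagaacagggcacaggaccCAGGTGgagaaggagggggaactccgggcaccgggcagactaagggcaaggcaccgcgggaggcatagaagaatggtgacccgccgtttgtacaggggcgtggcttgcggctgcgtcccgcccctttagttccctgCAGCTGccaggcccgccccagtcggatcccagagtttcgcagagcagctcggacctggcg
Fmod, chr13:48045317-48045566, + strand: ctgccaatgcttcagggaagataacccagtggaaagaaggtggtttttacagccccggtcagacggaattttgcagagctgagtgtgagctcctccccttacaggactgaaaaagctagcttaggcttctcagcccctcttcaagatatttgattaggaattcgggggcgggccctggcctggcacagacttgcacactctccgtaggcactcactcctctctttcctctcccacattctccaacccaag

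The E-box, which reads the same on both strands, had 3 matches upstream of Chad, 2 each for Comp, Cilp2 and Cilp, 1 for Thbs4 and 0 for Fmod, Tnmd and both Mkx starts. It occurs in 65.5% of all 33469 windows of this length, so a match alone says little. Chad, Comp and Cilp2 each hold the form CAGCTG, which was picked out after these sequences were seen and is in 12.0% of all windows. The SMAD element CAGAC, searched on both strands, had 2 matches for Fmod, Comp and Cilp, 1 for Thbs4 and Cilp2, 1 and 2 for the Mkx starts and 0 for Chad and Tnmd, and occurs in 42.9% of windows. The EGR element GCGTGGGCG had 0 matches in the windows of these genes and occurs in 0.478% of all windows. These are matches of letters in a short window, and nothing about binding is drawn from them.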

How the data were processed

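Muscle RNA from 12 libraries in 4 groups of 3 was sequenced. Per the labels' protocols, RNA was taken up in Trizol and a TruSeq RNA kit was used. Strand is not marked by that kit. Trimmomatic, HISAT2, featureCounts, DESeq2 and the build Rnor_6.0 are named by the submitters' processing notes, without versions. The values used are the raw counts per gene that the authors deposited. Their normalized counts were not used. Names on more than 1 row (144) were kept as separate rows.

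Genes were filtered with filterByExpr (14225 kept), scaled by TMM and fitted with edgeR 4.0.16 in R 4.3.3, with 1 mean per group over all 12 libraries, quasi-likelihood tests and Benjamini-Hochberg adjustment over all genes at a threshold of 0.05. Deviations used log2 CPM with a prior count of 2. The fit was tested on simulated data. Pairs of libraries within a group differed by more than sampling noise: the chi-square statistic divided by its degrees of freedom was 24.5 to 147. P-values set a difference against the spread between libraries, which may be technical.

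The 10 genes and the lists were chosen with earlier results of these data known. Named genes were the 10, up to 2 neighbours on each side, up to 4 per list with a mean of at least 1 CPM and the largest difference in the diet mean, up to 4 per list called between the sets, and the 8 most alike in their deviations. Lum, Col3a1 and Col1a1 are named for their set difference, and their diet values stand beside it. Alternatives were DESeq2 1.42.0, limma-voom (limma 3.58.1), other scalings and filters, 1 set alone, pairing libraries whose numbers differ by 20, and omission of each library. Counts of separated genes without single libraries or with library size alone, and the CAGCTG search, were added after the data were seen. Promoters of Scx and Prelp were not used here.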

Additional observations from a re-analysis of the deposited data

How the results depend on the processing

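Between diets, the count of the 10 genes called was 0 in the fits of set 1 under every alternative run. For the mean over both sets it was 5 with DESeq2 and 1 with no filter, and in set 2 it was 2 with DESeq2. Leaving out each library in turn gave 0 in each of these and in the difference between sets. Over all genes, DESeq2 called 38 in set 1, 40 in set 2, 55 for the mean and 30 for the difference between sets, where edgeR called 1, 0, 1 and 0. Limma-voom called 3 in set 1 and 0 for the mean, and no filter gave 6, 3, 11 and 1. With only the libraries of set 1, 5 were called there. Without single libraries the ranges were 1 to 22, 0 to 4, 0 to 8 and 0 to 1, the highest of the first 3 without control 23.

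Set 2 against set 1, the count of the 10 called was 3 to 6 without single libraries, against 5. It was 4 to 7 under the other alternatives. Over all genes, the counts were 4880 to 6450 and 5309 to 6245, against 5620. Fmod, Cilp and Scx kept their call under all alternatives run. Of genes not called, Comp was called with DESeq2, limma-voom, no filter and 4 omissions of a library, Mkx with limma-voom (2.77) and 1 omission, and Chad with 1 omission.

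The count of genes above all controls was 1 in set 1 with library size alone (Prelp), against 2 (Fmod and Prelp). It was 2 to 8 without single libraries. In set 2 it was 6 with library size alone and 6 to 7 without single libraries. Library size alone shifted the median of all genes by -0.11 for set 2 against set 1. Between diets, that median was 0.087 in set 2 and 0.046 for the mean with library size alone. Under TMM it was -0.012 and -0.010.

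Numbers are not shared between diets. Taking titles 20 apart as a replicate block, limma-voom (consensus correlation 0.13) called 0 of the 10 in each diet comparison, and edgeR with the block called 7 of the 10 between sets, Chad (edgeR adjusted p = 0.024) and Comp added. Deviations of such pairs correlated at 0.08 to 0.18, and each of 6 set 1 libraries correlated best with its own partner, a hint from the data and not the design. Mkx had at most 26 counts in a library, and its sign between diets changed when restriction 15 was left out.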
